A study of Homo sapiens with 6 samples.

Results

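The G1 cyclins, the G1 cyclin-dependent kinases and the RB family were read from every array probe that carried the symbol CCND1, CCND2, CCND3, CCNE1, CCNE2, CDK2, CDK4, CDK6, RB1 or RBL1. These were 10 of the 36337 gene names on the array, and their probes were taken by symbol, whatever their values. They had 12 probes, with 2 each for CCNE2 and RBL1 and 1 for each other gene. BxPC-3, an established human pancreatic adenocarcinoma line, had been grown under the skin of female BALB/c (nu/nu) mice, which were 8 to 10 weeks old when the experiments started. Nude mice lack mature T cells and keep their other host cells, and all tumors came from this single cell line. When tumors measured 150 mm3, the DFX group was started on deferasirox, an iron chelator used against iron overload, as a saline suspension by gavage at 200 mg/kg, 3 times a week for 21 days, while the control group was given the vehicle. RNA of 3 control and 3 DFX tumors was measured on 6 single-colour arrays, and the labels do not say which tumor came from which mouse, so that p-values measure the spread between these tumors.

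Passage from G1 into S phase is driven by cyclin-dependent kinases. D-type cyclins bind CDK4 and CDK6, E-type cyclins bind CDK2, and both kinds of complex phosphorylate the retinoblastoma protein and its relatives, the pocket proteins. Unphosphorylated pocket proteins hold E2F transcription factors in check, and their phosphorylation frees E2F to switch on its target genes. These include genes of DNA replication, and also CCNE1, CCNE2 and RBL1. Much of this control lies in protein binding, phosphorylation and degradation, which an RNA array does not measure. Iron chelators are known to slow the cell cycle, and loss of cyclin D1 protein is part of what has been described for them, which is the question the comparison of DFX with control tumors addresses here for the RNA.

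RBL1, which encodes the pocket protein p107, was the member whose level, by its brighter probe, followed E2F target genes most closely across the tumors. Its 2 probes gave differences of opposite sign between DFX and control tumors, each with a 95% interval that holds 0. Their sequences are shown for that reason. The probe A_23_P28733 lies on the minus strand at chr20:35627197-35627256 and the probe A_24_P276102 at chr20:35635829-35635888 (array annotation, hg19). Each of the 60-base sequences, read 5′ to 3′, keeps at least 1 reading frame free of stop codons.
RBL1 probe A_23_P28733: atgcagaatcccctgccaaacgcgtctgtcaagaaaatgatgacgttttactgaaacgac
RBL1 probe A_24_P276102: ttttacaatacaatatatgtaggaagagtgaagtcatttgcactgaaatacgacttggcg

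RefSeq promoter sequences (GRCh38.p14) were at hand for 6 of the 10 genes, in 9 windows, and none was at hand for CCND1, CCND2, CCNE2 and CDK2. The 250 bases before each start were searched on both strands for the 8-letter E2F motif in the forms TTTGGCGC, TTTGCCGC, TTTCGCGC and TTTCCCGC. Of the 9 windows, 1 held a match, against 2.79% of 35116 windows of all genes. That window was RBL1 (chr20:37095998-37096247, minus strand), where TTTCGCGC began 26 bases and TTTGGCGC 16 bases before the start, without overlap. The RBL1 window is printed with the motifs in capitals beside that of CCNE1 (chr19:29811741-29811990, plus strand), an E2F target by background knowledge in which these letters were not found. A match of letters is a description and does not show binding. The only RB1 window (chr13:48476200-48476449) had 36.8% GC, against 59.2% to 81.2% in the other windows. Whether it is the main RB1 promoter was not tested, so RB1 cannot be counted as a gene without the motif.
RBL1: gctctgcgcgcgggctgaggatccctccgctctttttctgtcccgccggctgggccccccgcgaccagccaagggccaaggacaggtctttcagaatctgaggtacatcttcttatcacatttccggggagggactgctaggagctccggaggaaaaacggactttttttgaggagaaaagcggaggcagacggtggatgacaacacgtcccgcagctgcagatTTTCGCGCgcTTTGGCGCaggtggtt
CCNE1: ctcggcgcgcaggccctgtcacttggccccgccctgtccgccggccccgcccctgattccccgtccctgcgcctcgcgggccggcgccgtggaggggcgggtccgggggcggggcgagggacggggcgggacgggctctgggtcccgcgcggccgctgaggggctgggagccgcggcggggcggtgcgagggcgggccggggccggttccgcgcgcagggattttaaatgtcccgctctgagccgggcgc

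Levels are given as log2 of the background-subtracted processed intensity after quantile normalization between arrays, and a difference of 1 is a 2-fold change. A probe was tested when its background p-value was under 0.05 on all 6 arrays, which kept 31807 of 50599 probes and 11 of the 12 probes described here. Arrays had 50.3% to 56.5% of spots well above background and correlated at 0.980 to 0.990 over the tested probes. All 6 lay on 1 slide, with control tumors in row 1 and DFX tumors in row 2, so row and treatment cannot be told apart. All 10 markers of tumor epithelium were well above background on every array. Of these, 4 (KRT8, KRT18, EPCAM, S100P) were higher in DFX tumors at an unadjusted p under 0.05 in limma by their brightest tested probe. Over all tested gene names 3.63% were higher. The adjusted p of the 4 was 0.514 to 0.578 in limma, and only 1 of 3 KRT8 and 1 of 2 KRT18 probes passed. KRT7 had a lower mean in DFX tumors (-0.17), and KRT19, the brightest of the list, differed by 0.022. The summed level of the list was 767570 to 817580 in control and 837390 to 867490 in DFX tumors. Fewer cells of a type and less RNA per cell cannot be told apart in such bulk samples.

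No tested G1 gene differed between DFX and control tumors by the test used, and CCND2 was not tested. With limma, 0 of the 11 tested probes had an unadjusted p under 0.05, where 8.41% of all tested probes did, 4.95% lower and 3.46% higher in DFX tumors. Over so few probes a count of 0 lies near that share. Once p-values were adjusted by Benjamini-Hochberg across the whole array, 0 of the 11 probes and 0% of all probes passed. The Kruskal-Wallis H test at an unadjusted p under 0.05 gave 0 of 11. With 3 tumors in each group it passes only where the groups do not overlap, so it repeats the count of overlaps that follows. The control and DFX tumors overlapped for all 11 probes, where 9.15% of all probes separated the groups with DFX lower and 6.34% with DFX higher. A p above the threshold does not show that the levels were equal, and the intervals given with each gene say how large a difference the 6 tumors still allow.

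**Figure D1:**
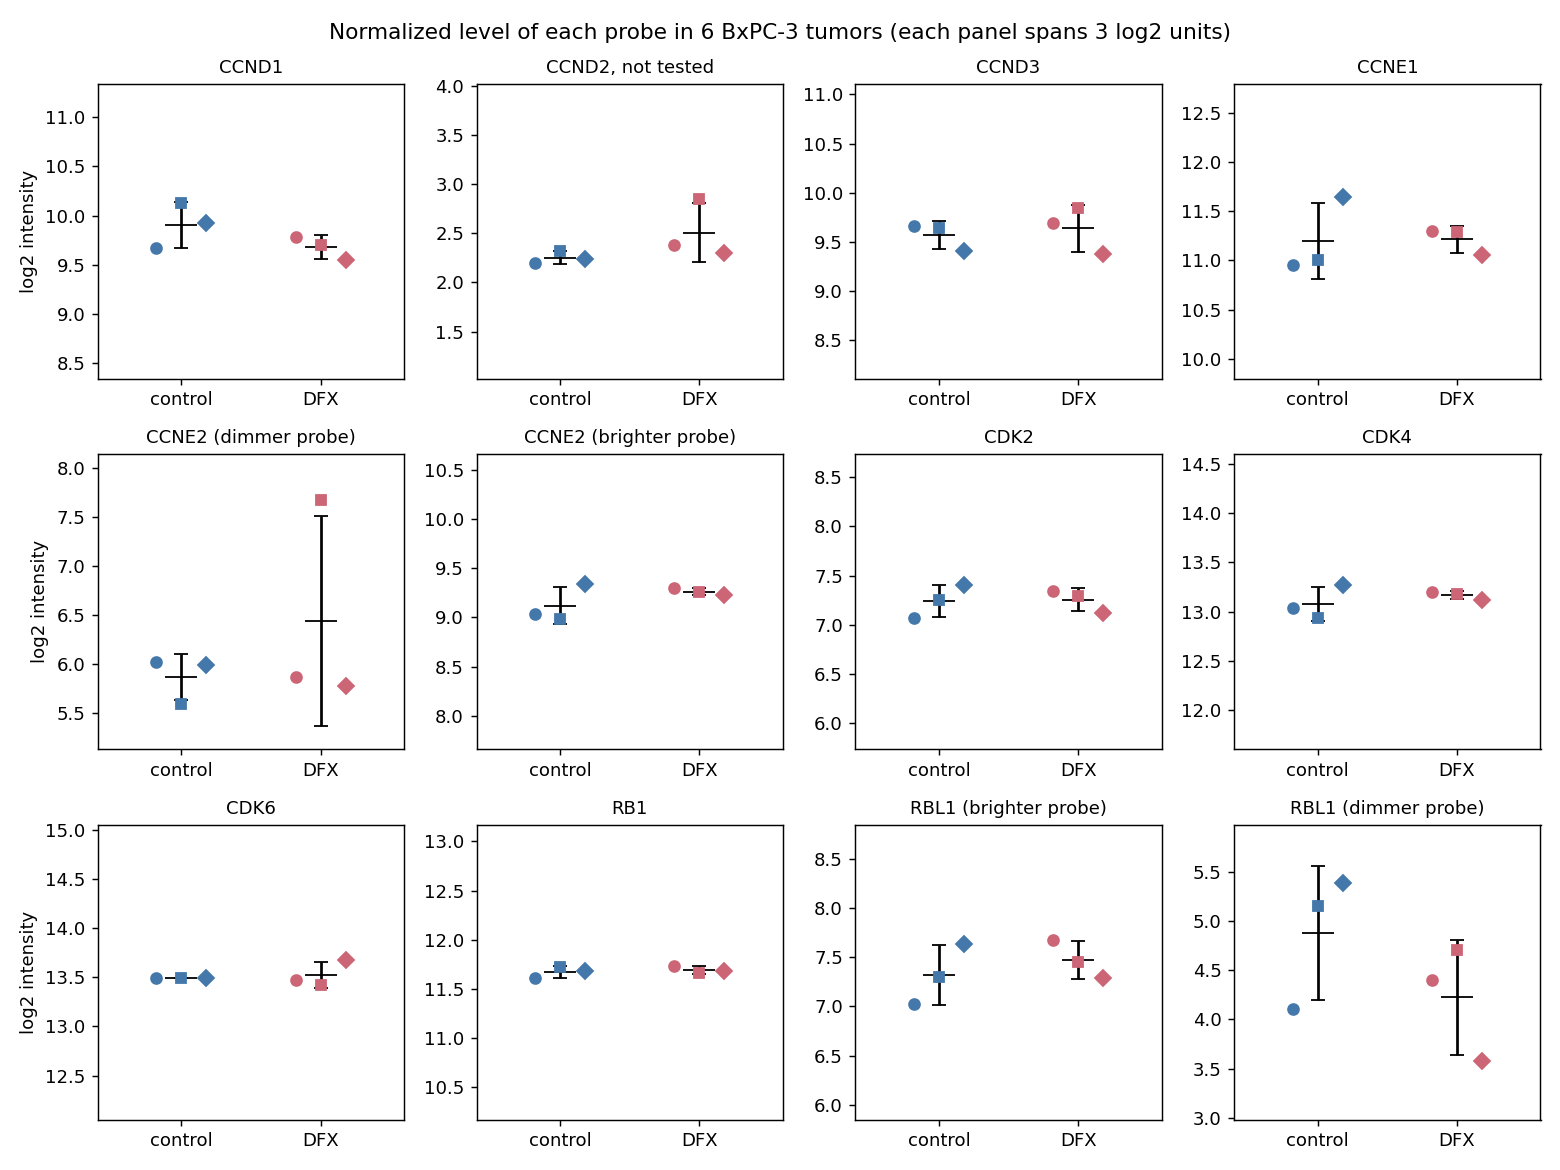
Normalized log2 intensity of the 12 probes in 3 control (blue) and 3 DFX (red) tumors, with circles, squares and diamonds for tumors 1, 2 and 3 of a group, and the group mean with its SD as black bars. The groups overlap in every panel, the widest spread is that of the dimmer CCNE2 probe in DFX tumors (5.78 to 7.67), and levels are not comparable between panels.

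Among the D-type cyclins, the partners of CDK4 and CDK6, CCND1 had the lower mean in DFX tumors. CCND1 (A_23_P202837, chr11:69468233-69468292, hg19) was at 9.67, 10.13 and 9.92 in control tumors and at 9.79, 9.70 and 9.55 in DFX tumors. Both the lowest DFX tumor and the highest control tumor set the gap, while control 1 lay within the DFX range. The means were 9.91 ± 0.23 and 9.68 ± 0.12 (SD, n = 3 each), a difference of -0.23 (standard error 0.15, 95% interval -0.60 to 0.15). In linear terms this is a ratio of 0.855, with an interval of 0.660 to 1.11, and the adjusted p in limma was 0.710. Without control 1 the difference was -0.35, and without control 2 it was -0.11.

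CCND3, the D-type cyclin best known from lymphoid cells and also widely present in epithelia, had nearly equal means. It (A_23_P361773, chr6:41903193-41903252) was at 9.66, 9.64 and 9.41 in control tumors and at 9.69, 9.84 and 9.38 in DFX tumors. The lowest tumor of each group lay side by side, and the highest was DFX 2. Its difference was 0.068 (standard error 0.16, 95% interval -0.32 to 0.45, adjusted p = 0.919 in limma). CCND2 (A_24_P278747, chr12:4414040-4414099) was well above background on 0 of 6 arrays and was not tested. Its values were 2.20, 2.32 and 2.24 in control tumors and 2.38, 2.85 and 2.29 in DFX tumors, and its background p-value reached 0.650, so that its level is bounded by the background only.

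For the E-type cyclins, which activate CDK2 at the end of G1, CCNE1 and the brighter CCNE2 probe spread more between control tumors than between the group means, and the dimmer CCNE2 probe did not. CCNE1 (A_23_P209200, chr19:30315106-30315165) was at 10.95, 11.00 and 11.64 in control tumors and at 11.30, 11.29 and 11.05 in DFX tumors. Control 3 stood above all other tumors and the remaining control tumors below all DFX tumors. The means were 11.20 ± 0.38 and 11.21 ± 0.14 (SD, n = 3 each), and the difference was 0.015 (standard error 0.21, 95% interval -0.50 to 0.53, adjusted p = 0.990 in limma). Without control 3 the difference was 0.24, and without control 1 it was -0.11.

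CCNE2 was measured by 2 probes. The brighter one (A_33_P3247022) was at 9.04, 8.99 and 9.34 in control tumors and at 9.30, 9.26 and 9.23 in DFX tumors. As for CCNE1, control 3 was highest and the other control tumors lowest, while the DFX tumors lay within 0.070 of each other. The difference was 0.14 (standard error 0.13, 95% interval -0.17 to 0.45, adjusted p = 0.769 in limma). The dimmer probe (A_33_P3217819) was at 6.02, 5.60 and 5.99 in control tumors and at 5.87, 7.67 and 5.78 in DFX tumors. DFX 2 alone stood high, while by the brighter probe it lay between the other DFX tumors, and it was also the array with the fewest spots well above background (50.3%). Its difference of 0.57 (95% interval -0.70 to 1.84, adjusted p = 0.773 in limma) became -0.045 without DFX 2.

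The kinases stayed within narrow ranges. CDK2, the partner of the E-type cyclins (A_23_P98898, chr12:56365789-56365848), was at 7.07, 7.25 and 7.40 in control tumors and at 7.35, 7.30 and 7.12 in DFX tumors, with control 1 and DFX 3 as the low tumors. Its difference was 0.014 (standard error 0.13, 95% interval -0.31 to 0.34, adjusted p = 0.985 in limma). CDK4 (A_23_P24997, chr12:58142263-58142322), a kinase of the D-type cyclins, was at 13.03, 12.94 and 13.27 in control tumors and at 13.20, 13.18 and 13.12 in DFX tumors. All DFX tumors lay between control 1 and control 3. The difference for CDK4 was 0.087 (standard error 0.12, 95% interval -0.21 to 0.39, adjusted p = 0.855 in limma). CDK6 (A_24_P166663, chr7:92234443-92234502), the other D-cyclin kinase, was at 13.49 in each control tumor and at 13.47, 13.42 and 13.68 in DFX tumors. The control tumors differed by an SD of only 0.00074, against 0.14 in DFX tumors, where DFX 3 was the highest. The CDK6 probe was printed as 1 spot, and control 2 and control 3 had the same value after quantile normalization. That SD lies far below the SDs over repeated spots of other probes (0.037 to 0.15), so it does not measure how alike the control tumors were. The difference for CDK6 was 0.033 (standard error 0.11, 95% interval -0.24 to 0.30, adjusted p = 0.947 in limma).

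RB1, which encodes the retinoblastoma protein, had the most tightly bounded difference of the set. It (A_23_P204850, chr13:49055845-49055904) was at 11.61, 11.73 and 11.68 in control tumors and at 11.73, 11.66 and 11.68 in DFX tumors. All 6 tumors lay within 0.13 of each other. The difference was 0.020 (standard error 0.097, adjusted p = 0.965 in limma), with a 95% interval of -0.22 to 0.26, or 0.861 to 1.19 in linear terms. RBL1, by the brighter probe A_23_P28733, was at 7.02, 7.30 and 7.63 in control tumors and at 7.68, 7.45 and 7.29 in DFX tumors. Control 3 and DFX 1 were high and control 1 was low. Its difference was 0.16 (standard error 0.19, 95% interval -0.32 to 0.63, adjusted p = 0.836 in limma), or 0.0065 without control 1, 0.054 without DFX 1, 0.25 without DFX 3 and 0.31 without control 3.

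The dimmer RBL1 probe, A_24_P276102, pointed the other way. Within tumors, the dimmer minus the brighter probe differed between the groups by -0.81 (exact permutation test, p = 0.2). With 20 assignments this test allows no p under 0.1, so it cannot decide whether the probes disagree. The dimmer probe was at 4.11, 5.15 and 5.39 in control tumors and at 4.40, 4.70 and 3.58 in DFX tumors, with control 1 inside the DFX range. It was well above background in 3 of 3 control and 0 of 3 DFX tumors, so its level in DFX tumors is not well measured. The measured means were 4.88 ± 0.68 in control and 4.23 ± 0.58 in DFX tumors (SD, n = 3 each). With each array's lowest signal well above background as a floor, only DFX 3 was raised, from 3.58 to 4.12. The DFX mean was then 1.39-fold below the control mean in the 6 arrays as processed here. This ratio is no lower limit, since DFX 1 and DFX 2 entered as measured. The fitted difference was -0.65 (standard error 0.43, 95% interval -1.71 to 0.40, adjusted p = 0.705 in limma). With single tumors left out it ranged from -1.04 without control 1 (unadjusted p = 0.0341 in limma) to -0.33 without DFX 3 (unadjusted p = 0.465), and it was -0.40 without control 3. It was -0.23 with normexp background correction and -0.17 with the raw mean signal. Both are smaller in size than the log2 value of that 1.39-fold ratio (0.47), as are -0.33 without DFX 3 and -0.40 without control 3. The ratio therefore does not hold across the processing or with single tumors left out.

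**Figure D2:**
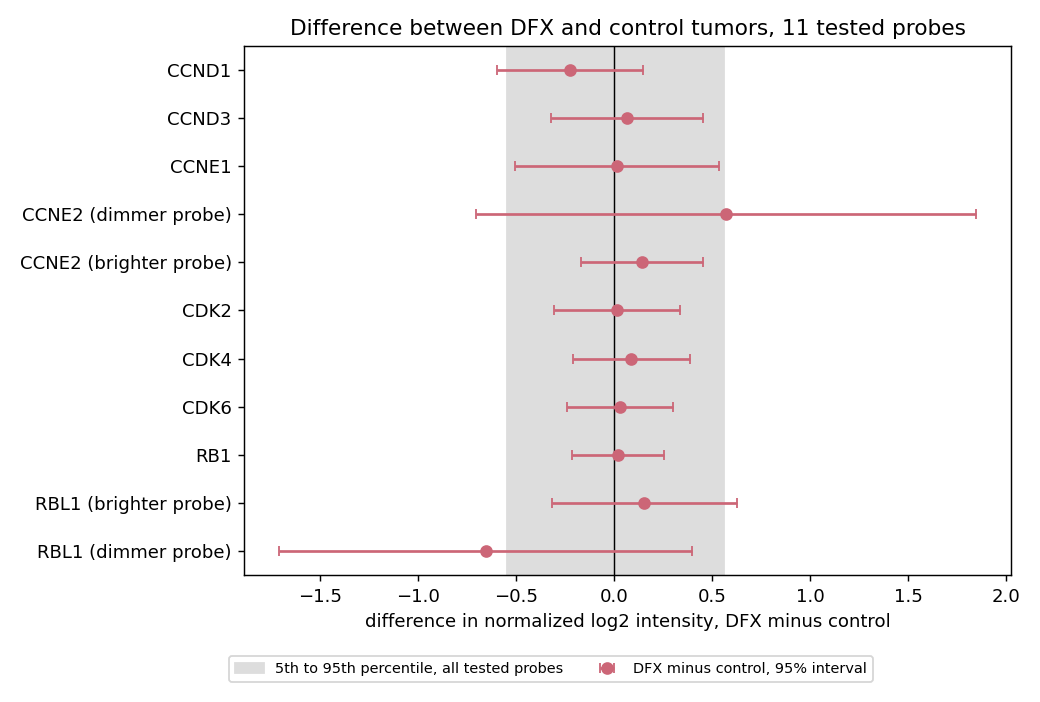
Difference in normalized log2 intensity (DFX minus control) of the 11 tested probes, with 95% intervals from limma as bars and the 5th to 95th percentile of all tested probes (-0.54 to 0.56) as a grey band. Every interval holds 0, and the widest belong to the dimmer probes of CCNE2 and RBL1.

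The typical difference was smaller than that of the array as a whole, although the dimmer probes of CCNE2 and RBL1 lay outside the 5th to 95th percentile of all tested probes. The median absolute difference was 0.087 over the 11 probes and 0.16 over all tested probes, and 29.9% of all probes had a smaller one than 0.087. The median standard errors were 0.15 and 0.17. The tested probes include dim ones, and the comparison was not matched for brightness. The mean was higher in DFX tumors for 9 of the 11 probes and lower for 2, and the median difference was 0.033, against -0.025 over all tested probes (-0.055 against -0.10 with the arrays scaled to equal medians, where most signs turn). The 95% interval lay within a 2-fold change in either direction for 9 of the 11 probes (77.5% of all tested probes) and within 1.5-fold for 7 of the 11 (48.5%). Outside the 2-fold limits were the dimmer probes of CCNE2 and RBL1, and CCND1, CCNE1, CCND3, CDK2, CDK4, CDK6 and RB1 were all inside them.

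CCND1, CDK2 and RB1 were printed on each array as 10 spots, which show the spot noise within an array. Each tumor had 1 array, so errors of extraction, labelling and hybridization cannot be told apart from the spread between tumors. For CCND1, the SD over spots was 0.037 to 0.077 within an array, and the mean of the spots had a standard error of at most 0.024. The CCND1 means of the 6 tumors ranged over 0.58, beyond what spot noise alone gives. For CDK2 the SD over spots was 0.060 to 0.15 (9 to 10 spots used), the standard error at most 0.049 and the range between tumors 0.33. RB1 had an SD over spots of 0.043 to 0.062, a standard error of at most 0.020 and a range between tumors of 0.13.

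**Figure D3:**
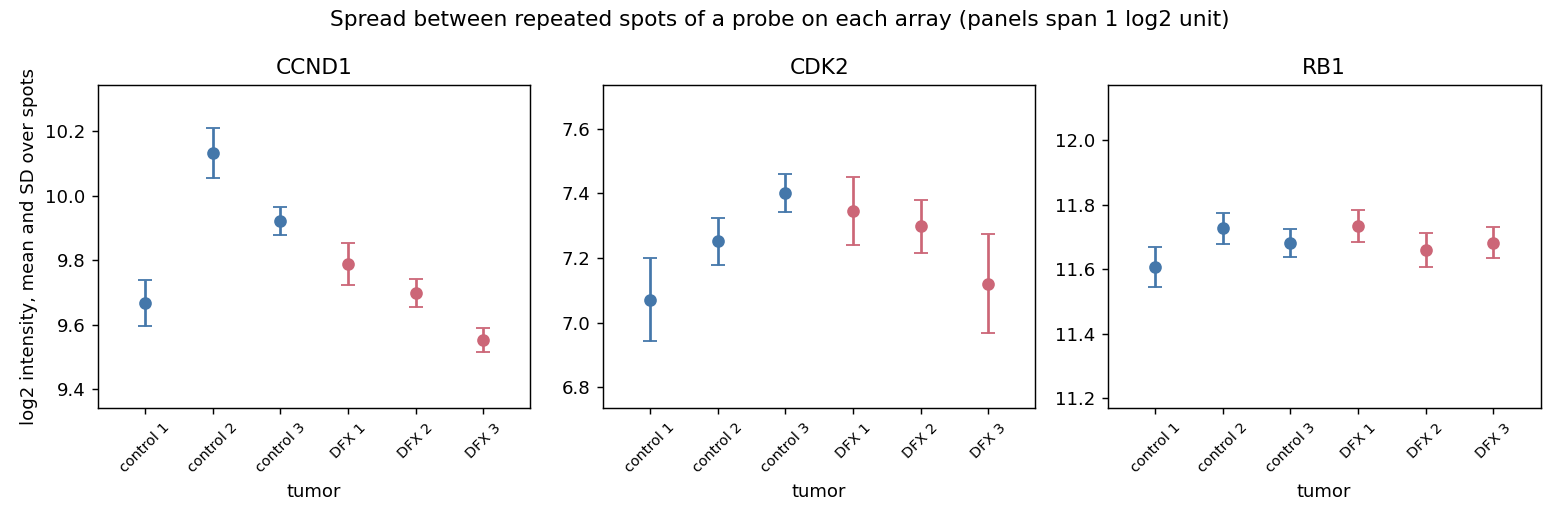
Mean log2 intensity and SD over the repeated spots (9 to 10 used) of the CCND1, CDK2 and RB1 probes on each array, control tumors in blue and DFX tumors in red. The CCND1 tumors spread over 0.58, the CDK2 tumors over 0.33 and the RB1 tumors over 0.13, beside spot SDs of at most 0.15.

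Part of the set varied alike between tumors. The genes are grouped here after their values were seen, as a description. CCNE1, CCNE2 (brighter probe), CDK2, CDK4 and RBL1 (brighter probe) were all highest or next to highest in control 3, and their median, taken from the mean of the control tumors, was -0.17, -0.13 and 0.22 in control tumors and 0.12, 0.10 and -0.026 in DFX tumors. Over the 22 E2F target genes of the G1 to S transition, a list of replication genes such as the MCM helicase, the same median was -0.24, -0.037 and 0.25 in control tumors and 0.22, 0.11 and -0.076 in DFX tumors. Control 3 exceeded the mean of the other control tumors by a median of 0.24 over the 11 probes, in 9 of 11, where the median over all tested probes was 0.019 and 52.4% were higher. It was the highest of all tumors for 5 of the 11 probes and for 25.3% of all tested probes.

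As a description over 6 tumors, which share the normalization and belong to 2 groups, Pearson's r with the E2F target median was 0.99 for RBL1 (brighter probe), 0.96 for CDK2, 0.89 for CCNE1, 0.80 for CCNE2 (brighter probe) and 0.77 for CDK4. It was 0.57 for RB1, 0.29 for CCND1, -0.011 for CCND3 and -0.37 for CDK6. The dimmer probes gave 0.20 for CCNE2 and 0.55 for RBL1, below their brighter probes. With the median of the 10 proliferation genes (S, G2 and M phase), r was 0.97 for CDK2, 0.86 for CCNE1, 0.58 for CDK4 and 0.55 for CCND1. It was 0.81 for the brighter and 0.85 for the dimmer RBL1 probe, and 0.54 and 0.31 for those of CCNE2. RB1 had 0.41, CCND3 0.14 and CDK6 -0.62, so the likeness was not particular to the E2F targets. The closest pairs within the set were CCNE2 with CDK4 (r = 0.97, and 0.97 without control 3) and CDK2 with RBL1 (0.93, and 0.91 without control 3). Of 86 genes of the pathway lists and the set itself, the most similar profile was that of CDK1 for CCNE1 (r = 0.97), TPX2 for CDK2 (0.99), CDC25A for RBL1 (0.97), CDC37 for CCND1 (0.89), CDK3 for CCND3 (0.92), MKI67 for RB1 (0.80) and CAND1 for CDK6 (0.77). Each of these is the highest of 86 values over 6 tumors, where a high r can also arise between unrelated profiles. Profiles of CCND3 depended on a single tumor, since its r with CCNE1 went from -0.20 to 0.52 and with CDK2 from 0.079 to 0.58 without control 3.

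**Figure D4:**
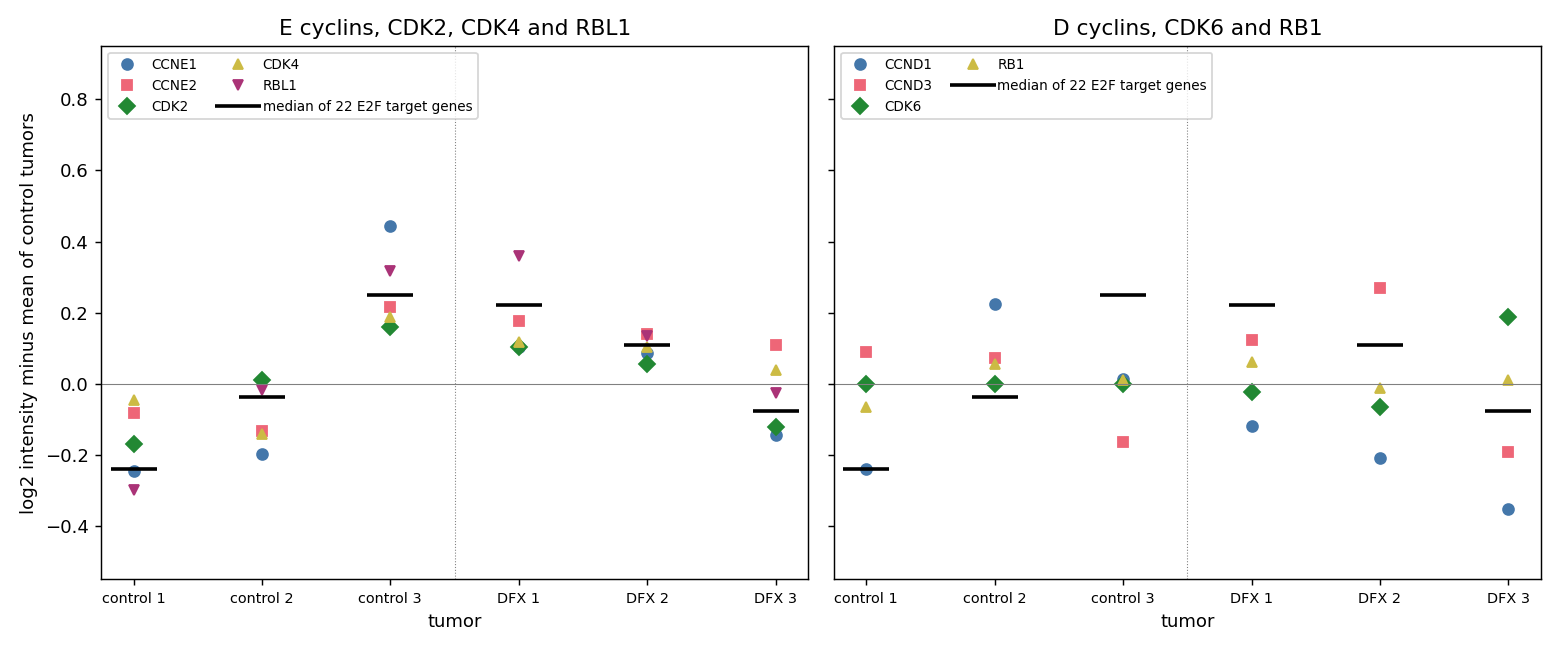
Log2 intensity of each gene (brighter probe where a gene has 2) in each tumor, minus the mean of the control tumors, with the E cyclins, CDK2, CDK4 and RBL1 on the left and the D cyclins, CDK6 and RB1 on the right. The black bars are the median of 22 E2F target genes, at 0.25 in control 3 and -0.24 in control 1. The grouping into panels was made after the values were seen, and CCNE1 in control 3, at 0.44, is the highest point.

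The other genes of the pathway were counted by their brightest tested probe. Of 80 listed genes 78 were tested, and in limma 0 were lower and 3 higher in DFX tumors at an unadjusted p under 0.05, or 3.85%, where 4.28% of 23810 tested gene names were lower and 3.63% higher. Among them were E2F1 and E2F2, activator E2F factors released by the pocket proteins. E2F1 was at 9.38 to 9.53 in control tumors and at 9.74 to 10.12 in DFX tumors, and E2F2 at 10.93 to 10.95 against 11.34 to 11.53. The groups did not overlap for either gene, and their differences were 0.48 (standard error 0.13, adjusted p = 0.514 in limma) and 0.52 (standard error 0.10, adjusted p = 0.513 in limma). Over all tested probes, 9.15% separated the groups with DFX lower and 6.34% with DFX higher. E2F2 passed under 20 of 20 alternatives and E2F1 under 19, all run on the same 6 tumors. The E2F2 control tumors had an SD of only 0.0083, below the SDs over repeated spots of other probes (0.037 to 0.15). That SD therefore does not measure how alike the control tumors were. FBXO4, an F-box protein described as a ligase adaptor for cyclin D1, was just outside the threshold. It was at 9.32, 9.27 and 9.44 in control tumors and at 8.96, 9.21 and 8.99 in DFX tumors, without overlap, a difference of -0.29 (standard error 0.12, unadjusted p = 0.0505, adjusted p = 0.594 in limma), and it passed as lower under 12 of 20 alternatives.

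None of the CDK inhibitors, which bind and block the cyclin-dependent kinases, passed the test among the 6 of 7 that were tested. CDKN1A, which encodes p21, was at 6.11, 6.79 and 6.41 in control tumors and at 6.19, 6.42 and 6.12 in DFX tumors, a difference of -0.19 (standard error 0.20). CDKN1B, which encodes p27, differed by 0.037 (standard error 0.13) and CDKN1C, which encodes p57, by 0.0017 (standard error 0.17). Among the INK4 inhibitors of CDK4 and CDK6, CDKN2A differed by 0.016 (standard error 0.18), CDKN2C by 0.10 (standard error 0.14) and CDKN2D by 0.033 (standard error 0.16). For CDKN2A, 1 of 2 probes was tested, and which transcript and which cells its signal came from was not tested. CDKN2B was well above background on 2 control arrays and no DFX array and was not tested.

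The remaining lists differed in their counts. In the list of other pocket proteins, E2F and DP factors 2 of 11 genes were higher, the E2F genes named above, with a list median of -0.062. Among 20 genes that activate or degrade G1 cyclin and kinase complexes, such as CDC25A and SKP2, 0 passed and the median difference was -0.087. The E2F targets had 1 of 22 higher, a median of 0.079 and 17 positive differences. Of the other cyclins and kinases 0 of 9 passed, and of the proliferation genes 0 of 10, with medians of -0.047 and -0.088, beside a median of -0.012 over all tested gene names. These counts take the brightest tested probe only. Of all tested probes, 1 of 2 for CDK5 and 1 of 3 for MKI67 had an unadjusted p under 0.05 in limma.

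Markers of host cells are given because the tumors hold mouse tissue, against which probes made for human RNA can hybridize. The summed fibroblast marker level was 17490 to 30059 in control and 17956 to 20902 in DFX tumors, with 2 of 10 tested markers lower (DCN, PDGFRA) and 1 higher (LUM). Summed leukocyte markers were 4665 to 5291 in control and 4785 to 5314 in DFX tumors, with 0 of 7 tested markers called. Endothelial markers summed to 639 to 1036 and 615 to 692, with 1 of 5 lower (TIE1) and 1 higher (PECAM1), and 3 of the 8 listed were well above background on no array. Called markers had an unadjusted p under 0.05 in limma by their brightest tested probe. At that threshold 4.28% of all tested gene names were lower and 3.63% higher. The called markers had an adjusted p of 0.504 to 0.584 in limma. Of their tested probes, 1 of 2 passed for DCN and 3 of 3 for PECAM1, and the others had 1. The part of host cells in the levels of the G1 genes was not tested.

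**Figure D5:**
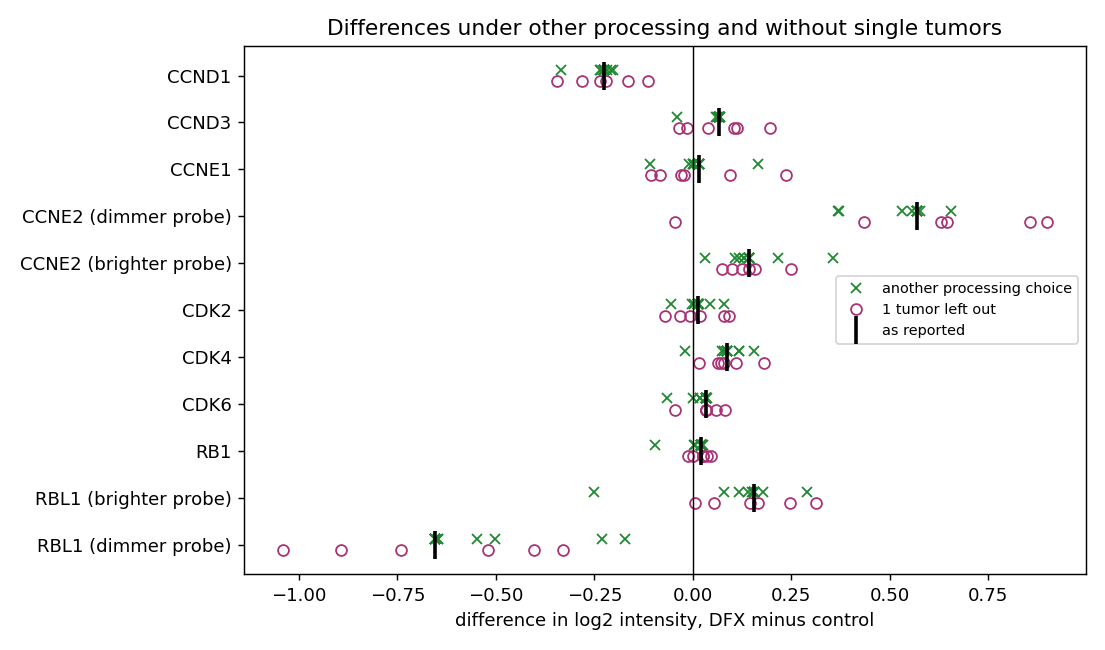
Difference in log2 intensity (DFX minus control) of the 11 tested probes as reported (black bar), under other processing choices (green crosses) and with 1 tumor left out (purple circles). CCND1 stays below 0 throughout (-0.35 to -0.11), while the values of CCNE1, CDK2 and RB1 lie on both sides of 0.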

How the data were processed

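The authors deposited 1 scanner file per array with intensities on a linear scale (raw mean, background and background-subtracted processed signal), a p-value of each spot against background, and flags. Per the file headers these came from Agilent Feature Extraction 10.7.1.1, while the labels name 9.5.1.1. Their table of processed intensities, whose direction and linear scale matched a quantile normalization of the processed signal (median difference 0.00438%), served as an alternative. The log2 and quantile steps followed the methods, which name no test for the arrays.

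Here the processed signal of non-control spots was put on the log2 scale and quantile-normalized, 1398 spot values flagged as outliers were dropped, and spots were averaged per probe. Only probes whose median background p-value lay under 0.05 on each of the 6 arrays were tested. Groups came from the sample titles, and limma 3.58.1 (lmFit, then eBayes, R 4.3.3) compared them without covariates, with Benjamini-Hochberg adjustment across the 31807 probes and 2.04 prior degrees of freedom. The fit was tested on simulated data. No sample was left out. Genes and probe positions (hg19) are those of the array annotation. The number of arrays limits the precision.

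The members and lists were chosen with earlier results of these data known. All members and all CDK inhibitors are named, together with the pathway genes that passed an unadjusted p of 0.05 (at most the 3 largest per list) and the most similar gene of each member. Of the pathway genes that passed, 1 is not reported here. FBXO4, CDK5, DCN, PDGFRA, LUM, TIE1, PECAM1 and the epithelial markers were named after their values were seen. Alternatives covered normalization, background correction, signal column, dim-probe filter, flagged spots, variance model, array weights, replicate block, probe choice and leaving out each tumor.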

Additional observations from a re-analysis of the deposited data

How the results depend on the processing

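No probe of the set passed an adjusted p under 0.05 in limma under any alternative run. The count at an unadjusted p under 0.05 stayed 0 except without control 1, where the dimmer RBL1 probe passed, so leaving out 1 tumor gave 0 to 1. With the replicate block the count was 0 of 11 probes, 2 pathway genes and 2419 of all probes. Titles number the tumors alike in both groups, but deviations of tumors with the same number correlated at only 0.027, 0.027 and 0.016, so the numbers do not pair them. Pathway genes called were 3 as reported, 5 without variance moderation, 5 with array weights, 7 with the Kruskal-Wallis H test and 2 to 5 with 1 tumor left out, the 5 without control 3, which added CDC25A and E2F7, higher in DFX. Over all probes 2675 passed as reported and 4927 with the Kruskal-Wallis H test, whose calls here are the probes or genes whose groups do not overlap.

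Of 210 recomputed differences of the 11 probes, 187 kept their direction and their side of the threshold, 22 changed sign and 1 newly passed. With median scaling, which shifted the middle of the whole array from -0.025 to -0.10, the sign turned, with CCND3 at -0.041, CCNE1 at -0.11, CDK2 at -0.055, CDK4 at -0.020, CDK6 at -0.064 and RB1 at -0.096. The 75th percentile turned CCNE1 to -0.0087, the authors' processed values turned CDK2 to -0.0015, and the mean of both probes turned RBL1 to -0.25. With 1 tumor left out the ranges that crossed 0 were -0.034 to 0.20 for CCND3, -0.11 to 0.24 for CCNE1, -0.045 to 0.90 for the dimmer CCNE2 probe, -0.071 to 0.093 for CDK2, -0.044 to 0.082 for CDK6 and -0.012 to 0.048 for RB1. The cause was not tested. The share of calls over all probes that were lower was 58.8% as reported, 42.6% with the 75th percentile and 71.8% with median scaling. The slide as a block was not run because there was 1 slide. Signal over background limits CCND2 and the dimmer RBL1 probe.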
